A study of Drosophila melanogaster with 2 samples.

Results

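The 10 core Notch pathway genes N, Dl, Ser, Su(H), H, mam, gro, numb, neur and kuz were examined for binding of HmgZ, a small chromatin protein with a DNA-binding high mobility group (HMG) box, in whole Drosophila melanogaster embryos. They were a fixed list of gene symbols, taken from 13945 annotated protein-coding genes on the 6 chromosome arms analysed, and the rule itself used no measured value. Chromatin immunoprecipitation and sequencing (ChIP-seq) had been done on a transgenic line, stably expressing HmgZ with green fluorescent protein (GFP) fused to its C-terminus. Mixed-sex embryos aged 4 to 24 h gave 2 biological replicates, numbered 1 and 3, which form 1 group with no second condition, and a whole embryo mixes many cell types. A free-text field names these samples as input controls, but an HmgZ antibody, a ChIP assay title and called regions are recorded for them, so they were read as ChIP. Sequencing depth is unknown, because only regions and their signal are given, and a ChIP of untagged embryos was not analysed here.

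Notch signalling passes between touching cells: a ligand on 1 cell, Delta (Dl) or Serrate (Ser), binds the receptor Notch (N) on its neighbour. Proteolysis then frees the receptor's intracellular domain, which enters the nucleus and, with the DNA-binding protein Suppressor of Hairless (Su(H)) and the co-activator mastermind (mam), turns on target genes such as the clustered Enhancer of split genes. In the fly embryo the pathway is best known for lateral inhibition, in which a cell that becomes a neural precursor keeps its neighbours from the same fate.

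A thresholded set of 6844 peaks had passed the irreproducible discovery rate (IDR), a measure of how well regions rank alike between replicates, and a longer pooled list held 30000 regions called from the reads of both replicates. The thresholded peaks were the strongest regions of the pooled list. Each region was placed by its summit and carries the authors' signal value, which has no stated unit and was used to rank regions within a list: its median was 193.2 in the thresholded set and 58.5 in the pooled list, and the lowest thresholded peak had 122.1. A gene was called bound where a thresholded summit fell 250 bp or less from any of its annotated transcription start sites (TSSs), and its window was the gene body plus 5 kb on each side. Values of a single replicate are multiples of the median signal in its own list, taken from the region whose summit was nearest, at most 100 bp away.

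HmgZ peaks lay at the start of the receptor gene N, of kuz, neur and numb, which act on the receptor or its ligand, and of the nuclear genes Su(H), H and gro. The ligand genes Dl and Ser had no thresholded peak anywhere in their windows, and mam had 7 peaks inside it but none at a start of its own. By count, 7 of the 10 genes were bound (70%, 95% Wilson interval 39.7 to 89.2), against 32.8% of all protein-coding genes. A thresholded summit lay in the window of 8 of the 10 genes (80%, interval 49.0 to 94.3), against 65.6% of all protein-coding genes. The intervals cover counting error only, and with 1 group and members chosen with earlier results known, no test was made.

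The background share changed with gene size and number of starts, and the count of the pathway genes is set beside each class. Of the 6 genes of 20 kb or more, 3 were bound (N, numb and kuz), against 38% of all genes of that length. The genes of 5 to 20 kb, which are H, gro and neur, were all bound, against 43.3%, and so was the only shorter gene, Su(H), against 29.8%. Among genes with 1 annotated start, 4 of 5 were bound against 27.3%, and among those with 2 or more starts 3 of 5 were bound against 48%. The listed genes thus stood above the share of their class in each of these 5 classes. The classes divide the same genes by length and again by number of starts, so they are not separate support. Each class rests on 6 genes or fewer. A summit anywhere in the window was found for 4 of the 6 longest genes against 73.7%, for 3 of 3 of the middle class against 78.9% and for the 1 short gene against 61.6%.

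**Figure D1:**
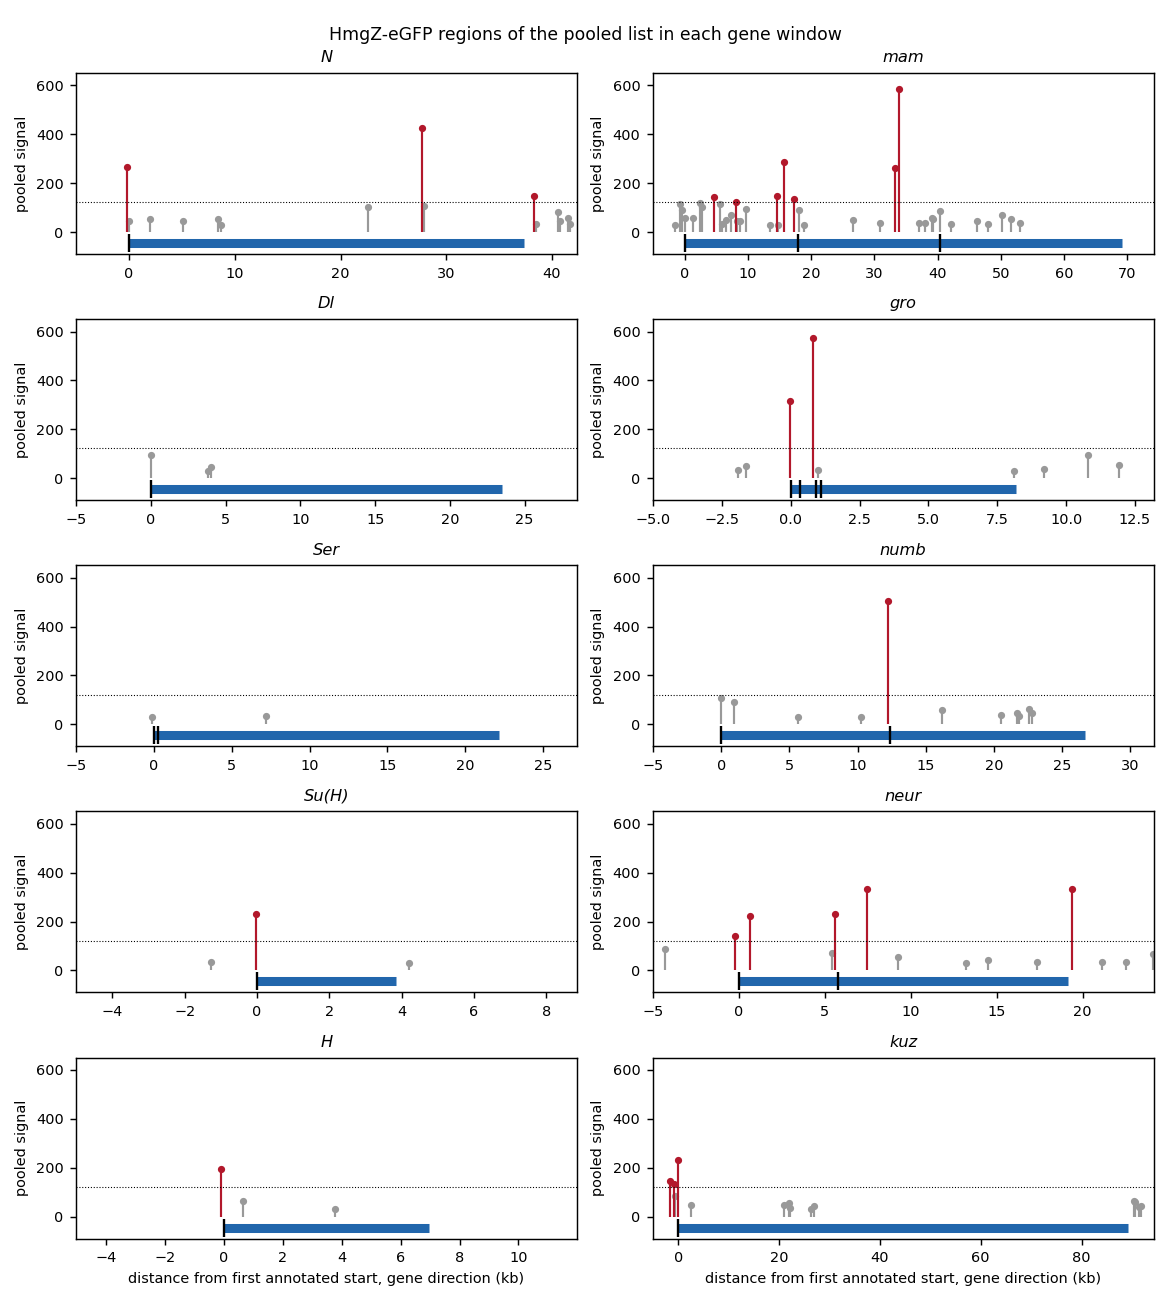
Summits of the pooled list in the window of each gene, plotted by distance in kb from the gene's first annotated start (x axis, in the direction of transcription) and by pooled signal (y axis). Red marks thresholded peaks, grey marks regions below the threshold (dotted line, 122.1), the blue bar is the gene body and black ticks are annotated starts; Dl and Ser carry grey marks only, and the 7 red marks of mam all lie inside the gene away from its starts.

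The 10 windows, 406.3 kb in all, held 23 thresholded summits and 112 summits of the pooled list. That made 0.566 thresholded summits per 10 kb, against 0.511 over the 6 arms and a median of 0.826 over the windows of all protein-coding genes. By class, 14 of the 23 (60.9%) were within 250 bp of a TSS, 9 (39.1%) were in introns and 0 were intergenic, where all 6844 peaks had 58.5%, 27.2% and 10.5%. The windows are mostly gene bodies, so their intron and intergenic shares are not like for like with those of all peaks. Of the 9 in introns, 8 were inside a listed gene. Of the 14 at a TSS, 9 were at a start of the listed gene itself and 5 at a start of a neighbouring or nested gene. For 12 of the 23 the nearest TSS belonged to another gene, so that a peak in a window was not always a peak of that gene. The 9 summits at own starts had a median distance of -106 bp, and 8 of them lay upstream of the start. No such position over all promoter peaks is set beside it here, so it is not shown to be particular to these genes.

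Motif spellings were looked for in the 201 bp centred on each summit, on both strands. They were the Su(H) site (TGTGGGAA, CGTGGGAA, TGTGAGAA or CGTGAGAA), the DNA replication-related element or DRE (TATCGATA), CGATA as bound by the boundary factor BEAF-32 and contained in every DRE, the GAGA factor repeat (GAGAG), the core of the Motif 1 binding protein site (GGTCACACT), the Zelda site (CAGGTAG), a CTCF core (AGNNGGCGC) and the palindromic E-box (CACGTG). In the sequences printed below, capitals mark matches to these spellings, on either strand, and all other letters are in lower case. Sequences are from the RefSeq copy of the assembly that dm6 names.

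The receptor gene N (X:3134870-3172221, plus strand, 1 start) had 3 thresholded summits in its window. The summit 176 bp upstream of its start had a pooled signal of 266.4, rank 1737 of 30000, with 3.72 times the list median in replicate 1 and 5.15 times in replicate 3 (mean 4.43 ± 1.01, SD, n = 2). A stronger and narrower peak (X:3162429-3162634) lay in an intron 27684 bp after the start, with a pooled signal of 425.0, rank 564, and 7.44 and 5.93 times the median in replicates 1 and 3. Both N peaks were therefore found in both replicates, and the intronic one stood above the start in each. The last summit was 52 bp upstream of the start of CG18508, past the end of N, with a signal of 147.0 and 1.90 and 3.13 times the median. The promoter summit and the intronic summit are shown as the peaks at the start and inside the body of N, the latter nearer to the start of CG18508 (10586 bp) than to that of N; the promoter window held none of the spellings and the intronic window held CGATA once.
N promoter summit, chrX:3134594-3134794, plus strand: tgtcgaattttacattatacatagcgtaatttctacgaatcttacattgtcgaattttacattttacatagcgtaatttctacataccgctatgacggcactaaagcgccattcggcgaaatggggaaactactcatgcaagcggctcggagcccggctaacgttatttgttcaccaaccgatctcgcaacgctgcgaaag
N intronic summit, chrX:3162454-3162654, plus strand: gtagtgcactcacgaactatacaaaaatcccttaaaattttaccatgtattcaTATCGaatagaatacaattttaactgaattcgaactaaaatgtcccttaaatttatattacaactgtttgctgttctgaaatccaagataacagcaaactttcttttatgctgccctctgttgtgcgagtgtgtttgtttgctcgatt

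The ligand genes had regions of the pooled list but none that passed the threshold. Dl (3R:19302731-19326217, minus strand), which encodes the main embryonic ligand, had 3 regions of the pooled list in its window. The strongest had its summit 1 bp after the Dl start and a signal of 96.6, rank 9101, below the lowest thresholded peak, with 1.91 times the median in replicate 1 and no matching region in replicate 3. Ser (3R:27172090-27194267, minus strand, 2 starts), which encodes the other ligand, had 2 regions, and the one 145 bp upstream of a start had a signal of 32.0, rank 26954, matched in replicate 3 alone at 0.541 times the median. So the start of Dl was in the upper part of the pooled list above the regions at the starts of mam, and 1 start of Ser had a region near the bottom of the list and the other had none within 250 bp. The Dl promoter, 250 bp before the start and 50 bp after it, is shown as a start that missed the threshold; it held 4 GAGAG matches, 2 of them overlapping, all upstream of the start.
Dl promoter, chr3R:19326168-19326467, minus strand: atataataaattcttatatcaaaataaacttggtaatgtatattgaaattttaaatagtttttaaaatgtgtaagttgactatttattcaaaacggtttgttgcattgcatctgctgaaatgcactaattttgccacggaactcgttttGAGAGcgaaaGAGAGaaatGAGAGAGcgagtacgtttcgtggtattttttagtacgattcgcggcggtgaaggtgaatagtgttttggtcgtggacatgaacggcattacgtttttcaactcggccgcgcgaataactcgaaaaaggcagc

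The genes acting on the ligand and on the receptor at the membrane were bound, with neighbours close by. The gene neur (3R:9020348-9039471, minus strand, 2 starts) encodes a ubiquitin ligase that promotes endocytosis of Dl in the signalling cell, and its window held 5 thresholded summits, 1.72 per 10 kb, the highest density of the 10 windows. The summit 136 bp upstream of the inner start had a signal of 230.9, with 2.53 and 5.14 times the median in replicates 1 and 3. A summit 212 bp upstream of the outer start, with a signal of 142.5 and 1.71 and 2.94 times the median, was nearer to a start of hyx, which is read from the opposite strand and has this start 295 bp upstream of that of neur. A further summit (signal 220.6) lay 82 bp after another start of hyx, which is inside neur. The strongest of the 5 was in an intron 1731 bp after the inner start, with 332.4 and 4.91 and 5.54 times the median, next to 332.0 for the summit 53 bp upstream of the start of tgo, a bHLH-PAS transcription factor gene beyond the end of neur. The call of neur thus rested on the inner start, since the outer one shared its peaks with hyx.

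The gene kuz (2L:13550139-13639411, plus strand, 1 start) encodes the ADAM metalloprotease that cleaves the receptor once ligand is bound. Its summit 28 bp after the start had a signal of 230.6, rank 2434, with 4.37 and 3.16 times the median in replicates 1 and 3 (mean 3.77 ± 0.856, SD, n = 2). Within 2 kb upstream, 2 weaker summits lay in and at the start of B4, which runs the other way with its start 811 bp upstream of that of kuz. They had signals of 144.2 and 134.0, and the latter, 114 bp into B4, was matched in replicate 1 alone. No thresholded summit lay in the 89273 bp of kuz beyond the one at its start, so that its density, 0.302 per 10 kb, was above only those of numb, Dl and Ser.

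The gene numb (2L:9437469-9464184, plus strand, 2 starts) encodes a membrane-associated inhibitor of Notch that is passed to only 1 daughter of a dividing precursor cell. Its single thresholded summit was 146 bp upstream of the inner start, with a signal of 505.8, rank 381, and 6.59 and 9.86 times the median in replicates 1 and 3 (mean 8.23 ± 2.31, SD, n = 2). At the outer start a region with its summit at -46 bp reached 107.6, with 1.84 and 1.31 times the median, and stayed below the threshold. The 2 starts of numb therefore differed several-fold in signal in both replicates. The inner summit is shown as the second strongest own promoter of the list; it held CGATA once and GAGAG once.
numb inner promoter summit, chr2L:9449584-9449784, plus strand: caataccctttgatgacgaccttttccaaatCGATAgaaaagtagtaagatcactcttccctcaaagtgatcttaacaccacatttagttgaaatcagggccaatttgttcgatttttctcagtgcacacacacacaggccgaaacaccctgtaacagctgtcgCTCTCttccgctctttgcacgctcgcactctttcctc

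Su(H) (2L:15039488-15043334, plus strand, 1 start) encodes the DNA-binding factor to which the freed receptor domain attaches. Its summit was 32 bp upstream of the start, with a signal of 232.2, rank 2398, and 2.90 and 5.19 times the median in replicates 1 and 3 (mean 4.05 ± 1.62, SD, n = 2). Hairless, H (3R:20621938-20628915, plus strand, 1 start), encodes the adaptor through which Su(H) represses in cells without signal, and its summit at -77 bp had a signal of 193.2, the median of the thresholded set, with 2.68 and 3.66 times the median. Each gene had 1 thresholded summit, at its start, and both were found in both replicates. The Su(H) window is shown because it was the only 1 of the 23 that held a DRE; it held CGATA 4 times, 2 of them within the DRE read on its 2 strands.
Su(H) promoter summit, chr2L:15039356-15039556, plus strand: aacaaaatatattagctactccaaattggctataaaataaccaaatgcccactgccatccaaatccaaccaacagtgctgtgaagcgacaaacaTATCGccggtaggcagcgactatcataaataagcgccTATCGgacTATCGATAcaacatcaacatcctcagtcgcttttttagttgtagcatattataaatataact

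The gene gro (3R:26041736-26049911, plus strand, 4 starts) encodes the co-repressor that Hairless and the Enhancer of split proteins recruit. It had 2 thresholded summits, both at its own starts. Of all protein-coding genes 2.4% had 2 or more such summits, and of those with 2 or more annotated starts 8.16% did; neur was the other pathway gene with 2. The outer summit, at -31 bp, had a signal of 315.9, rank 1171, with 3.50 and 7.32 times the median in replicates 1 and 3. The inner summit, 106 bp upstream of an inner start, had 573.8, rank 270, with 8.53 and 10.1 times the median (mean 9.33 ± 1.13, SD, n = 2). The inner start was the higher in both replicates, and the replicates differed more at the outer one. Both windows are shown, since they lie in 1 gene under 1 kb apart and differ in base composition and content: the outer held CGATA 3 times and was 50.7% G+C, the inner held none of the spellings and was 36.8% G+C.
gro outer promoter summit, chr3R:26041605-26041805, plus strand: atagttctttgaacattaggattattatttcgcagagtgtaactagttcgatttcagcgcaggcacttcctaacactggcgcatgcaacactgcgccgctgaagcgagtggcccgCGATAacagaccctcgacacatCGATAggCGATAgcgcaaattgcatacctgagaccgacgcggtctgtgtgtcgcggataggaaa
gro inner promoter summit, chr3R:26042435-26042635, plus strand: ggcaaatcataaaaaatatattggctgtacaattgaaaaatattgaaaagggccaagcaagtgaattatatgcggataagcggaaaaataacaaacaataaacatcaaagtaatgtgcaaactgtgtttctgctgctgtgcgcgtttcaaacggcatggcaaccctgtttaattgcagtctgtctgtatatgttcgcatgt

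The co-activator gene mam (2R:13991203-14060356, plus strand, 3 starts), whose product joins Su(H) and the receptor domain on DNA, had the opposite layout, with many peaks inside the gene and none at a start. The pooled list had a region at each start, with signals of 58.8, 91.6 and 85.8, all below the threshold. The strongest of its 7 thresholded summits had a signal of 586.3, rank 261, the highest of the 23, with 8.22 times the median in replicate 1 and a higher value in replicate 3 (mean 9.61 ± 1.97, SD, n = 2). It lay in an intron at 2R:14025005-14025309, 3447 bp upstream of the start of the nested gene CG18371, and another summit (signal 261.0, 4.18 and 4.37 times the median) was beside it. A summit with 286.2 and a mean of 4.59 ± 0.576 times the median (SD, n = 2) was 989 bp upstream of the nested microRNA gene mir-4978, and 1 with 146.5 and 2.95 and 1.40 times the median, was 191 bp after its start. The other 3 had signals of 124.3 to 145.1, and the one 714 bp upstream of the middle start of mam was matched in replicate 1 alone. The threshold fell within mam: its weakest thresholded summit had 124.3 and the strongest region just below had 119.9. In its window 38 regions of the pooled list were found, the most of the 10 genes, where N had 15, neur and kuz 14 each, numb 11, gro 9, Su(H), H and Dl 3 each and Ser 2.

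**Figure D2:**
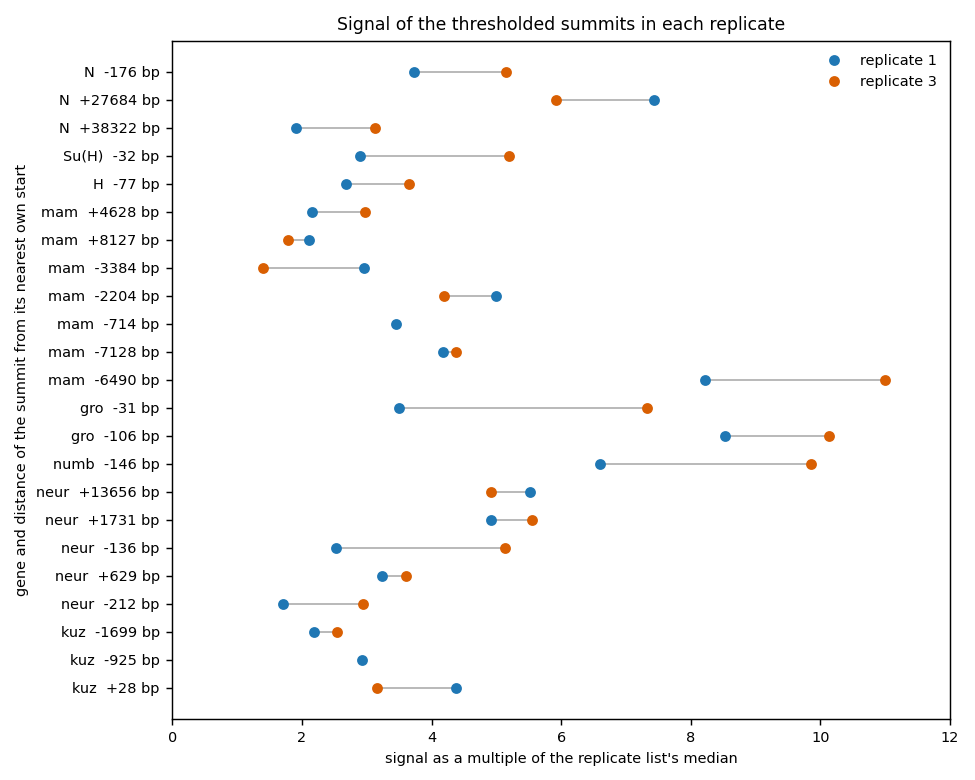
Signal of each of the 23 thresholded summits in replicate 1 (blue) and replicate 3 (orange), as multiples of the median of that replicate's list (x axis), with each summit labelled by gene and by its distance in bp from the nearest start of that gene (y axis). The mam summit at -6490 bp, the inner gro summit and numb are the farthest to the right, and 2 summits, 1 of mam and 1 of kuz, have a value in replicate 1 only.

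Over the 23 summits most had a region in both replicates, but their values differed at some. The log2 ratio of replicate 3 to replicate 1 ran from -1.07 at a mam summit to 1.07 at the outer gro summit. A region within 100 bp was present in both replicates for 21 of 23 (91.3%), against 94.1% of all thresholded peaks, and the 2 others were in replicate 1 only. The median log2 ratio of replicate 3 to replicate 1 was 0.25, against 0.24 over all thresholded peaks. For the 9 summits at own starts it was 0.58, with 8 of 9 higher in replicate 3. Over all promoter peaks it was 0.28, with 2570 of the 3765 matched in both replicates higher in replicate 3. Of the 21, 15 were higher in replicate 3 on the scale of list medians and 11 on a percentile scale. On the scale of list medians, 4267 of all 6443 thresholded peaks matched in both replicates were also higher in replicate 3. Of the 89 regions of the windows that missed the threshold, 31 were matched in both replicates (34.8%, against 39.2% of all pooled-list regions below the threshold), 36 in replicate 1 only, 18 in replicate 3 only and 4 in neither.

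By strength, the 23 summits had a median pooled signal of 230.9 (124.3 to 586.3), against 193.2 for the whole set, and the 9 at own starts a median of 232.2, against 200.4 for all promoter peaks. Among the 4574 bound protein-coding genes, ranked by their strongest promoter summit, gro stood at percentile 94.9 and numb at 93.1. N followed at 67.9, then Su(H) at 56.4, neur at 56.0, kuz at 55.9 and H at 40.5. The 3 genes in the middle differed by less than their replicates did. With the strongest 25% of the thresholded peaks alone, the bound genes fell from 7 to 2, gro and numb, against 10.3% of all protein-coding genes.

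**Figure D3:**
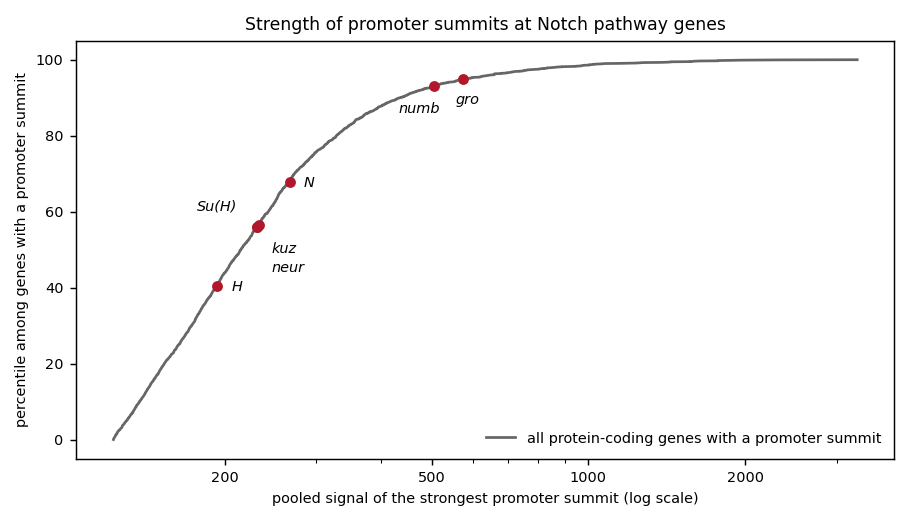
Percentile (y axis) of the pooled signal of a gene's strongest promoter summit (x axis, log scale) among the 4574 bound protein-coding genes, drawn as a grey curve, with the 7 bound Notch pathway genes in red. The genes gro and numb sit above percentile 90, and N, Su(H), neur, kuz and H between 40.5 and 67.9.

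The Enhancer of split complex, a cluster that holds target genes turned on by Notch, had no bound gene. It was set beside the pathway genes because it was already known to be unbound in these data. The complex lies at 3R:25997621-26041008, and gro begins 727 bp after it ends. It holds 7 basic helix-loop-helix (bHLH) repressor genes (mdelta, mgamma, mbeta, m3, m5, m7 and m8) and 4 Bearded family genes (malpha, m2, m4 and m6). Kaz-m1, which encodes a Kazal domain protein, is counted among the 12 by its place in the complex. A thresholded summit lay within 250 bp of the start of 0 of the 12, where 32.8% of all protein-coding genes were bound; since the genes were named for this, the count is a description only. In the pooled list 3 of the 12 had a promoter region (25.0%), where 54.6% of all genes and 10 of the 10 pathway genes had one. These were mbeta, at -156 bp with a signal of 113.8, rank 7486, and 2.27 and 0.873 times the median in replicates 1 and 3; m8, at -140 bp with 52.0 and 0.806 times the median in replicate 1 alone; and Kaz-m1, at -80 bp with 61.3. The highest of them, mbeta, was just under the threshold, and the 9 others had no region of the pooled list at their starts. The pooled list contains the thresholded peaks, so every bound gene also counts in the 54.6% and in the 10 of 10. The 25.0% comes from genes listed as unbound, so it is not like for like with them and is no separate support.

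HmgZ was not absent from the complex itself. Its 43.4 kb held 26 regions of the pooled list and 4 thresholded peaks. That made 0.922 thresholded peaks per 10 kb, against 0.511 over the 6 arms and a median of 0.826 over the windows of all protein-coding genes. The complex was taken as 1 span without flanks, so the median of gene windows is not like for like. All 4 thresholded peaks in the complex were intergenic. They lay 1775 bp upstream of malpha (signal 279.0, 4.49 and 4.62 times the median in replicates 1 and 3), 283 bp upstream of Kaz-m1 (170.9, 2.15 and 3.54), 414 bp upstream of m3 (253.2, 3.08 and 5.53) and 389 bp upstream of m7 (191.9, 4.06 and 1.72). Another lay outside, 991 bp upstream of mdelta in an intron of CG43116, with 165.6 and a match in replicate 1 only. The count of 0 therefore depends on the promoter width: within 500 bp of a start 3 of the 12 genes had a thresholded summit, and within 1000 bp 4 of the 12. Of all protein-coding genes 37.1% and 40.9% had one at those widths, but 32.8% already had one within 250 bp. The 12 were listed with 0 there, so these shares are not like for like and do not place the complex below other genes. The same widening took the pathway genes from 7 to 7 and then to 8.

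**Figure D4:**
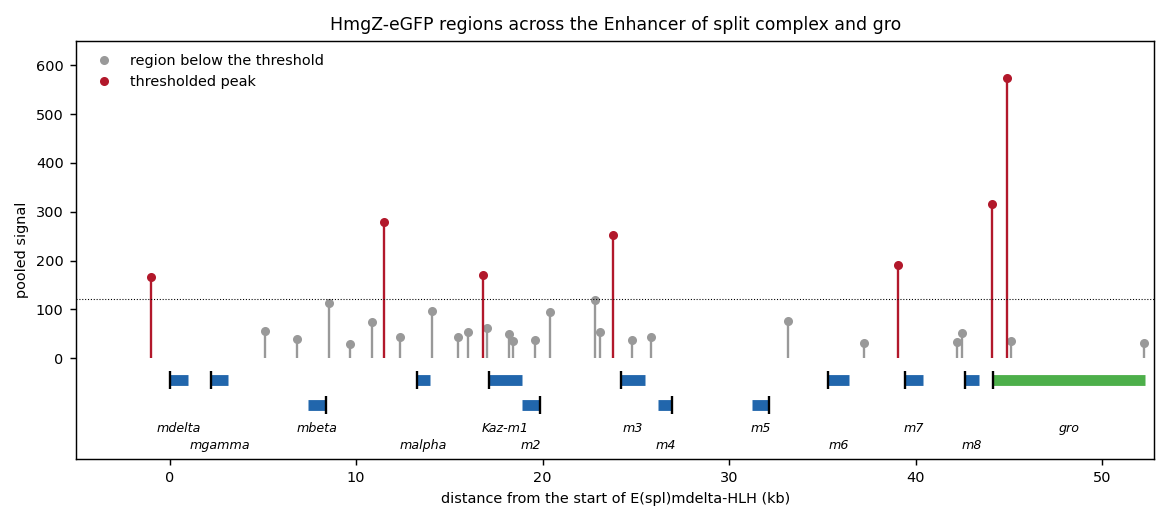
Pooled signal (y axis) of regions along the Enhancer of split complex and gro, by distance in kb from the start of mdelta (x axis), with thresholded peaks in red, other regions of the pooled list in grey and the threshold as a dotted line. Gene bodies are drawn under the axis, blue for the complex (lower row, minus strand) and green for gro, with a black tick at the first start of each; the red marks inside the complex stand between genes, and the highest signal is at the inner start of gro.

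The spellings were also counted in the promoters of both lists. In the 300 bp from 250 bp before to 50 bp after each start, the Su(H) site was in 0 of the 10 pathway genes, in 3 of the 12 Enhancer of split genes (m4, m5 and m8) and in 4.22% of all protein-coding genes. CGATA was in 5 of 10, 1 of 12 and 53.0%, and GAGAG in 7 of 10, 8 of 12 and 36.3%. A gene counted if the promoter of any of its starts held the spelling. The 5 pathway genes with 2 or more starts thus had more sequence searched than genes with 1 start, which include all 12 of the complex. G+C was taken at the first annotated start of each gene only, which in numb is not the start with the thresholded summit. There, promoters of the complex had a median G+C of 53.2% (35.7 to 59.0), against 38.3% for the 7 bound pathway genes and 38% (36.7 to 55.7) for the 3 others. Over all protein-coding genes, bound ones had 37.3% and the rest 38.3%. The median at first starts was thus higher in the complex than in bound or unbound pathway genes. The part of G+C in the difference in binding was not tested. The m8 promoter is shown as the one with 2 Su(H) matches, TGTGAGAA and CGTGGGAA read on opposite strands.
E(spl)m8-HLH promoter, chr3R:26039990-26040289, plus strand: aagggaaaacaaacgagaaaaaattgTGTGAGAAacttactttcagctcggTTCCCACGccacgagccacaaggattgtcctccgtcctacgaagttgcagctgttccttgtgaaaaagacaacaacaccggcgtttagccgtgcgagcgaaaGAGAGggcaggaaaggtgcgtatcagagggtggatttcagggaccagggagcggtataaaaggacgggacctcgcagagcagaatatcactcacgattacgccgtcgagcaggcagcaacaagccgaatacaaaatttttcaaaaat

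At the 23 summits themselves the spellings were about as common as at all thresholded summits. CGATA was in 9 windows (39.1%, against 39.9%), GAGAG in 7 (30.4%, against 25.0%) and the DRE in 1 (4.35%, against 7.26%). The Motif 1 core and the E-box were in 1 window each, against 4.85% and 2.67%. The Su(H) site, the Zelda site and the CTCF core were in 0 windows, where 2.25%, 0.847% and 3.67% of all summits held them, and 23 windows are too few to set 0 apart from such shares. The median G+C of the 23 windows was 38.3%, against 38.8%.

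Of 33 other genes of the pathway, 15 were bound (45.5%, 95% Wilson interval 29.8 to 62.0), against 32.8% of all protein-coding genes, and 27 had a promoter region in the pooled list (81.8%). Among genes for modification and folding of the receptor, 2 of 4 were bound: rumi, a glucosyltransferase of Notch, with 555.3 and 7.67 and 10.3 times the median, and shams, a xylosyltransferase, with 145.9 at a summit nearer to the start of CG11920, but not fng or O-fut1. Of the 6 genes for cleavage, aph-1 (202.0), kul (188.7), Psn (131.3) and pen-2 were bound, and Nct and Tace were not. The summit at pen-2 was nearer to the start of Ote.

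Of the 4 ubiquitin ligase genes, mib1, which like neur acts on the ligands, had 372.7 with 6.29 and 5.56 times the median, Nedd4 had 339.8 and Su(dx) 310.5, and dx was not bound. Of 6 trafficking genes, lgd, which controls endosomal sorting of the receptor, had the highest signal of the 33, 974.0, rank 85, with 12.9 and 19.1 times the median. AP-2alpha, a clathrin adaptor subunit, had 377.8 and Nak, the Numb-associated kinase, 134.5, both nearer to the start of another gene (ebi and Tango6), and lqf, spdo and pcx were not bound. Among 5 nuclear cofactors, kto, of the Mediator kinase module, had 154.1 and the co-repressor CtBP had 153.7, and Nipped-A, skd and insv were not bound.

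Genes known as targets of Notch signalling and the Bearded complex are set against 32.8% bound among all protein-coding genes and 29.8% among those under 5 kb. The Bearded complex genes and dpn are that short. The target vg is in the class of 5 to 20 kb, with 43.3% bound, and sim and ct are in that of 20 kb or more, with 38%. None of the 4 listed Bearded complex genes (Brd, Tom, Ocho and BobA), small inhibitors of neur, was bound. Of 4 further targets, only vg was, at 135.9 with 1.81 and 2.78 times the median, and dpn, sim and ct were not. With the 12 genes of the Enhancer of split complex, these 3 groups had 0 of 12, 0 of 4 and 1 of 4 bound, beside 2 of 4, 4 of 6, 3 of 4, 3 of 6 and 2 of 5 for the groups of pathway components. These groups are small, and the Enhancer of split genes were listed because they were already known to be unbound. The differences between groups were not tested.

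**Figure D5:**
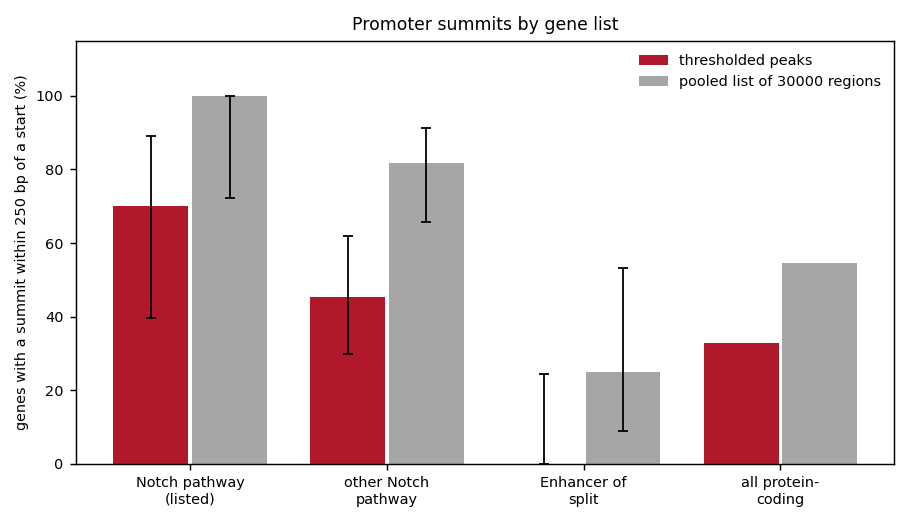
Percent of genes with a summit within 250 bp of a start (y axis) for the 10 listed Notch pathway genes, the 33 others, the 12 Enhancer of split genes and all protein-coding genes, from thresholded peaks (red) and the pooled list (grey), with 95% Wilson intervals as bars. The thresholded shares are 70%, 45.5%, 0% and 32.8%, and the pooled-list shares 100%, 81.8%, 25.0% and 54.6%. The Enhancer of split genes were already known to be unbound when chosen, so both of their shares and the intervals are a description only. Bound genes of the other lists count in the pooled-list shares too.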

How the data were processed

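HmgZ-eGFP ChIP-seq region lists of 2 biological replicates were used. Regions of each replicate and of both replicates' combined reads were called on dm6 against a shared control, and the thresholded set derived from those lists, per the labels' file notes. Which aligner and caller made them is not given in the sources used here. A signal value comes with every deposited region and was used to rank regions within a list. The -log10 q-value made by the authors is capped and was not used.

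Summits were assigned to genes of Ensembl 115, with the RefSeq copy of the same assembly for sequence. Transposable elements, pseudogenes and duplicate entries for mature microRNAs were left out of the TSSs. Of 55 listed symbols, 3 were matched through synonyms: Dl, kul and lgd. Named were all 10 genes with every thresholded summit in their windows, all 12 Enhancer of split genes, and of the other pathway genes every bound and unbound gene, with signal values for up to 3 bound per role. A promoter reached 250 bp to each side of a TSS, and replicates were matched within 100 bp. The genes and lists were chosen with earlier results of these data known. Functions were checked on simulated data. Software was Python 3.11.15, numpy 2.4.6, scipy 1.17.1 and matplotlib 3.10.9.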

Additional observations from a re-analysis of the deposited data

How the results depend on the processing

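With the stronger 50% of the thresholded peaks, 14 summits lay in the windows in place of 23, and 7 of the 33 other pathway genes were bound in place of 15. With the strongest 25%, 2 of the 10 genes were bound, 5 had a summit in their window, 8 summits lay in the windows and 6 of the 33 others were bound. Without flanks the windows held 14 summits. Of the 112 regions of the pooled list, 52 were matched in both replicates. Bound Enhancer of split genes numbered 3 within 500 bp of a start and 4 within 1000 bp. From single replicates, with as many of their strongest regions as the thresholded set holds, 7 of the 10 genes were bound in each, 8 had a summit in their window, 24 to 26 summits lay in the windows, 53.8% to 58.3% of them at a TSS, and 12 to 14 of the 33 others were bound. Their full lists gave 91 to 128 regions. Bound Enhancer of split genes ranged from 0 to 1: mbeta was bound without replicate 3. Of 56 alternative values of counts and shares, the other 45 stayed within 1.5 times the count or within the interval. For all protein-coding genes, an alternative added after seeing the data, single replicates gave 31.2% to 33.1% bound, and the stronger 50% and strongest 25% of peaks 19.5% and 10.3%. No paired analysis was possible because there is only 1 group. Depth is unknown, and the cause of these changes was not tested beyond the smaller peak sets and windows themselves.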
